A study of Mus musculus with 31 samples.

Results

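Stem-like cultures from 2 mouse medulloblastomas, tumours 27 and B, were compared with neural stem cell (NSC) cultures from the hindbrain of young mice. Medulloblastoma arises in the cerebellum, and Ptch1 encodes the receptor that restrains Hedgehog signalling in its precursor cells. Both tumours are labelled Ptch het p53 het, meaning that one copy of Ptch and one copy of the tumour suppressor gene p53 were altered, and both cultures are labelled cancer stem cells. The arrays were taken by their genotype and tissue labels: 12 of the 31 in the series, namely 3 technical arrays of tumour 27, 3 technical arrays of tumour B, 3 cerebellar white matter cultures and 3 cultures from the IV ventricle region. The NSC came from mice at postnatal day 7 and carry WT in their names. Every group is labelled C57BL/6, and all cells grew as neurospheres, floating clusters in medium with EGF and FGF2. The age of the tumour-bearing mice is not given in the sources used here. Each tumour is 1 culture, so its 3 arrays were averaged and the group holds n = 2 tumours against n = 6 hindbrain cultures. Cultures of the subventricular zone (3) and of Ptch het p53 wt tumours (8 lines) entered only the estimate of the spread and the comparisons that name them.

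In the developing nervous system, stem cells give rise to neurons, astrocytes and the oligodendrocyte lineage, whose precursors are marked by Pdgfra and Sox10 before they make myelin. Neural crest cells, which leave the neural tube early, also depend on Sox10 and Erbb3 and give rise to Schwann cells, melanocytes and some of the cartilage of the head. Cartilage cells secrete collagens II, IX and XI and the proteoglycan aggrecan, bound together by link proteins such as Hapln1. The p53 protein is a transcription factor that activates genes of growth arrest, apoptosis and DNA repair, among them Cdkn1a.

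The 250 bases before the transcription start (RefSeq, GRCm38.p6) are shown for 4 of the 12 most raised genes, since these genes moved together and the stretches are where shared promoter letters would lie. They are the matrix genes Hapln1 (chr13:89540386-89540635, plus strand) and Col9a1 (first start, chr1:24177360-24177609, plus strand), the growth factor receptor gene Pdgfra (chr5:75152001-75152250, plus strand) and the secreted carbonic anhydrase gene Car6 (chr4:150201136-150201385, minus strand). Letters are written 5′ to 3′ on the gene's strand, and capitals mark the single match found in these 4 stretches, to the Sox motif AACAAT on the opposite strand, starting at position -53, where -1 is the base before the start.
Hapln1: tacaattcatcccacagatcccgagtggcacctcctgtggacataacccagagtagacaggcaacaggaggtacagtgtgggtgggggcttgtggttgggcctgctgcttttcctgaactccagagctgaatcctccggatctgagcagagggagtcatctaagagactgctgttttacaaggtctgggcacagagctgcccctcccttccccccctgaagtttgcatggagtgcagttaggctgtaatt
Col9a1: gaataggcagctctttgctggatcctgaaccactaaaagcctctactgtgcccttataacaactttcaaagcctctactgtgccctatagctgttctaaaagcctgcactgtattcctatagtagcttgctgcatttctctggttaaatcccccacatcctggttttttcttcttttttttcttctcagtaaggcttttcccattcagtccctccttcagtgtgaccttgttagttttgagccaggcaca
Pdgfra: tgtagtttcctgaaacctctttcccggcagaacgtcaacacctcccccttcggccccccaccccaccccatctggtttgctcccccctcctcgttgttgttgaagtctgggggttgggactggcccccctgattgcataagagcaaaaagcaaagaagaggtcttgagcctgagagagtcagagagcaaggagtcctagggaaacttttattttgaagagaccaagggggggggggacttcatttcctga
Car6: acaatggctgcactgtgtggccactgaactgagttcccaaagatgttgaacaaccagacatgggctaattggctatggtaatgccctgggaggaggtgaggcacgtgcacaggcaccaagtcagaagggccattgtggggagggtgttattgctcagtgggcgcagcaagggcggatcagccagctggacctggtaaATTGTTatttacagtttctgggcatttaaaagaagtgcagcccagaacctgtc
Promoters of 9 of the 12 most raised genes were in the RefSeq table, with 13 start sites in all. Of those 13 stretches, 1 held AACAAT on either strand, against 9.42% of all 32851 promoters. None of them held the palindromic Ebf motif, TCCC and GGGA with 2 bases between (0.779% of all promoters) or the Gli motif TGGGTGGTC (0.225%, both strands). Of 16 promoters of raised cartilage genes, 1 held AACAAT, at Sox6, and 0 held either of the other motifs. None of the 5 promoters of raised oligodendrocyte lineage genes held any of the 3 motifs.

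Values are log2 intensities after RMA, a method that corrects, normalises and summarises the probes of each array, and ranged from 0.417 to 12.92 with array medians of 3.166 to 3.324. Technical arrays of 1 tumour correlated at 0.990 to 0.991 for tumour 27 and 0.992 to 0.996 for tumour B, and arrays of different tumours at 0.960 to 0.973, across all genes. Y-linked genes of the 9 cultures without a Y signal read 0.736 to 1.52 (median 1.06), a guide chosen after the data were seen, and a difference from a group whose mean lies at or below that range is given as at least the distance to its top. All 6 hindbrain cultures had a Y signal (Eif2s3y 4.75 to 6.36) and both tumours lacked one (1.13 and 1.02). Xist, the RNA of the inactive X chromosome, read 3.28 to 9.31 in the hindbrain cultures and 9.05 and 8.52 in the tumours, so some hindbrain cultures carried both signals. The Y signal and the groups cannot be told apart. Date-like marks in the sample names were not shared between the tumour and hindbrain arrays, so those marks and the groups cannot be told apart either. Technical array 3 of each tumour carries another roman numeral in its name than arrays 1 and 2, a numeral the labels do not explain. The labels call the 3 arrays technical replicates, and whether they hold the same RNA is not given in the sources used here, so their spread may include more than array error.

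Of 18194 genes, 4878 (26.8%) were called different between the tumours and the hindbrain cultures, meaning a limma adjusted p under 0.05. Of these, 2508 (13.8%) were higher and 2370 (13%) lower in the tumours, and 1026 (5.64%) and 954 (5.24%) moved at least 2-fold. Both tumours lay on one side of the whole hindbrain range at 35.8% of genes, called or not, and at 4572 genes (25.1%) together with a call. These shares over all genes are the level against which the gene lists below are read. In these bulk cultures, fewer cells of a type and less RNA per cell cannot be told apart.

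**Figure D1:**
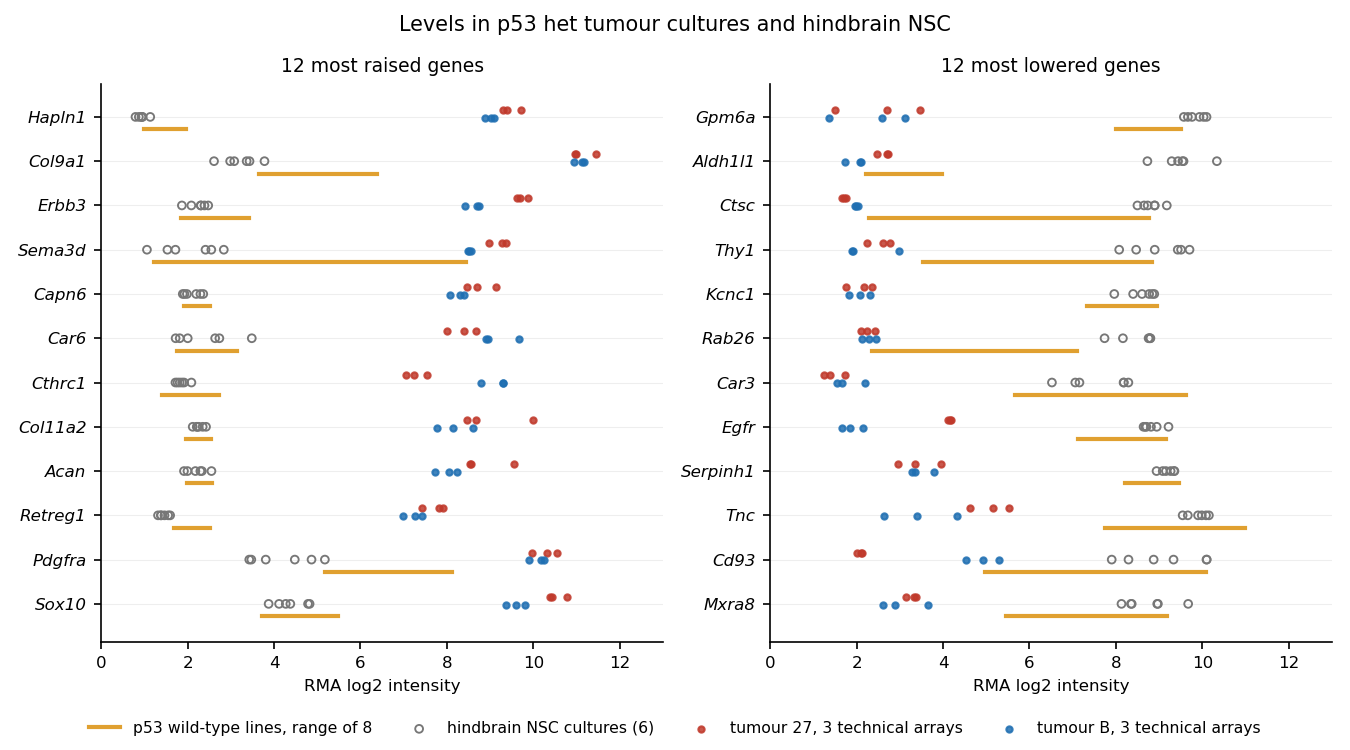
RMA log2 intensity (horizontal axis) of the 12 most raised and 12 most lowered genes, with each technical array of tumours 27 (red) and B (blue), each of the 6 hindbrain NSC cultures (open circles) and the range of 8 p53 wild-type lines (bar). Every tumour array lies beyond the hindbrain circles for these genes, which were chosen for that, and the wild-type bars stay with the hindbrain cultures for Hapln1 and Acan but reach the tumours for Sema3d.

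The 12 genes with the largest rises were Hapln1, Col9a1, Erbb3, Sema3d, Capn6, Car6, Cthrc1, Col11a2, Acan, Retreg1, Pdgfra and Sox10, and their values are a description because the size of the rise chose them. Hapln1, the cartilage and brain link protein, read 9.40, 9.29 and 9.72 on the arrays of tumour 27 and 9.02, 8.89 and 9.09 on those of tumour B, against 0.79 to 1.13 (median 0.94) in the hindbrain cultures. The groups lay far apart, and since the hindbrain level is that of absent Y-linked genes, the rise was at least 7.72. Col9a1, a chain of collagen IX, read 11.00, 10.96 and 11.45 in tumour 27, 10.95, 11.13 and 11.17 in tumour B and 2.61 to 3.78 (median 3.22) in hindbrain NSC. That is a difference of 7.90 ± 0.50 (SE). The 8 p53 wild-type lines read 3.65 to 6.38 for Col9a1, from within the hindbrain range upwards and below both p53 het tumours, and the p53 het tumours stood 6.32 ± 0.48 above them (limma adjusted p = 3.4e-08).

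Erbb3, the neuregulin receptor of Schwann cell and oligodendrocyte precursors, read 9.61, 9.70 and 9.87 in tumour 27, 8.74, 8.69 and 8.42 in tumour B and 1.87 to 2.48 (median 2.30) in hindbrain NSC. Sox10, the transcription factor of neural crest and oligodendrocyte precursors, read 10.39, 10.43 and 10.78 in tumour 27, 9.59, 9.81 and 9.38 in tumour B and 3.87 to 4.82 (median 4.32) in hindbrain NSC. Pdgfra, the platelet-derived growth factor receptor of oligodendrocyte precursors and mesenchyme, read 10.32, 10.54 and 9.96 in tumour 27, 10.25, 10.18 and 9.90 in tumour B and 3.43 to 5.18 (median 4.14) in hindbrain NSC. All 3 genes were high on every tumour array and did not overlap with the hindbrain cultures, at differences of 6.93 ± 0.33, 5.69 ± 0.38 and 5.99 ± 0.72. At 26.3% of all genes the p53 het tumours were called different from the p53 wild-type lines, and for these 3 genes they were higher, by 6.92 ± 0.32, 5.83 ± 0.36 and 3.79 ± 0.69 (limma adjusted p = 7.5e-11, 2.9e-09 and 0.00054). Pdgfra in the wild-type lines, at 5.17 to 8.12, lay above or at the top of the hindbrain range.

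Among the other raised genes, Capn6, a calpain-like protein without protease activity, rose by 6.40 ± 0.17 and Retreg1, an endoplasmic reticulum receptor for autophagy, by at least 5.95. Car6 was higher by 6.37 ± 0.40. Cthrc1, a secreted protein linked to collagen matrix and Wnt signalling, rose by 6.34 ± 0.36 and was higher in tumour B (9.14) than in tumour 27 (7.28), a difference of -1.86 ± 0.45 for 27 minus B (limma adjusted p = 0.0248). Sema3d, a secreted guidance protein, rose by 6.85 ± 1.35, and its large error comes with wild-type lines that ranged from 1.23 to 8.44, up to nearly the 8.52 of tumour B.

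The 12 largest falls were in Gpm6a, Aldh1l1, Ctsc, Thy1, Kcnc1, Rab26, Car3, Egfr, Serpinh1, Tnc, Cd93 and Mxra8. Gpm6a, a membrane glycoprotein of neurons and neural progenitors, read 1.50, 2.71 and 3.46 in tumour 27, 3.12, 2.59 and 1.36 in tumour B and 9.57 to 10.10 (median 9.85) in hindbrain NSC, a fall of 7.39 ± 0.30. Its arrays spread over about as wide a range within each tumour, at a low level, while the hindbrain cultures were tight. Egfr, the receptor for the EGF in the medium, read 4.19, 4.10 and 4.16 in tumour 27, 1.84, 1.67 and 2.14 in tumour B and 8.64 to 9.22 (median 8.76) in hindbrain NSC. It fell by 5.81 ± 0.48, and the difference of 2.27 ± 0.64 between the tumours missed the threshold (limma adjusted p = 0.0581). The wild-type lines kept Egfr at 7.12 to 9.15, and the p53 het tumours lay 5.34 ± 0.46 below them (limma adjusted p = 1.9e-07).

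Serpinh1, the chaperone of collagen folding, read 3.95, 2.96 and 3.36 in tumour 27, 3.27, 3.34 and 3.78 in tumour B and 8.94 to 9.35 (median 9.21) in hindbrain NSC. It fell by 5.75 ± 0.28, in the same cultures in which collagen genes rose. Tnc, the stem cell niche matrix protein tenascin C, fell by 5.61 ± 0.59, and Kcnc1, a voltage-gated potassium channel, by 6.50 ± 0.32. Ctsc, a lysosomal protease, Thy1, a surface glycoprotein of neurons, and Car3, a carbonic anhydrase, fell by 6.96 ± 1.17, 6.61 ± 0.92 and 5.94 ± 0.87. Cd93 and Mxra8, both surface proteins, fell by 5.60 ± 1.04 and 5.57 ± 0.67. Aldh1l1, an enzyme of folate metabolism and marker of astrocytes, fell by 7.18 ± 0.41, and Rab26, a small GTPase of vesicle traffic, by 6.24 ± 0.89. For Aldh1l1 and Rab26 the difference from the p53 wild-type lines was -0.45 ± 0.40 and -1.28 ± 0.86 and missed the threshold (limma adjusted p = 0.48 and 0.33).

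**Figure D2:**
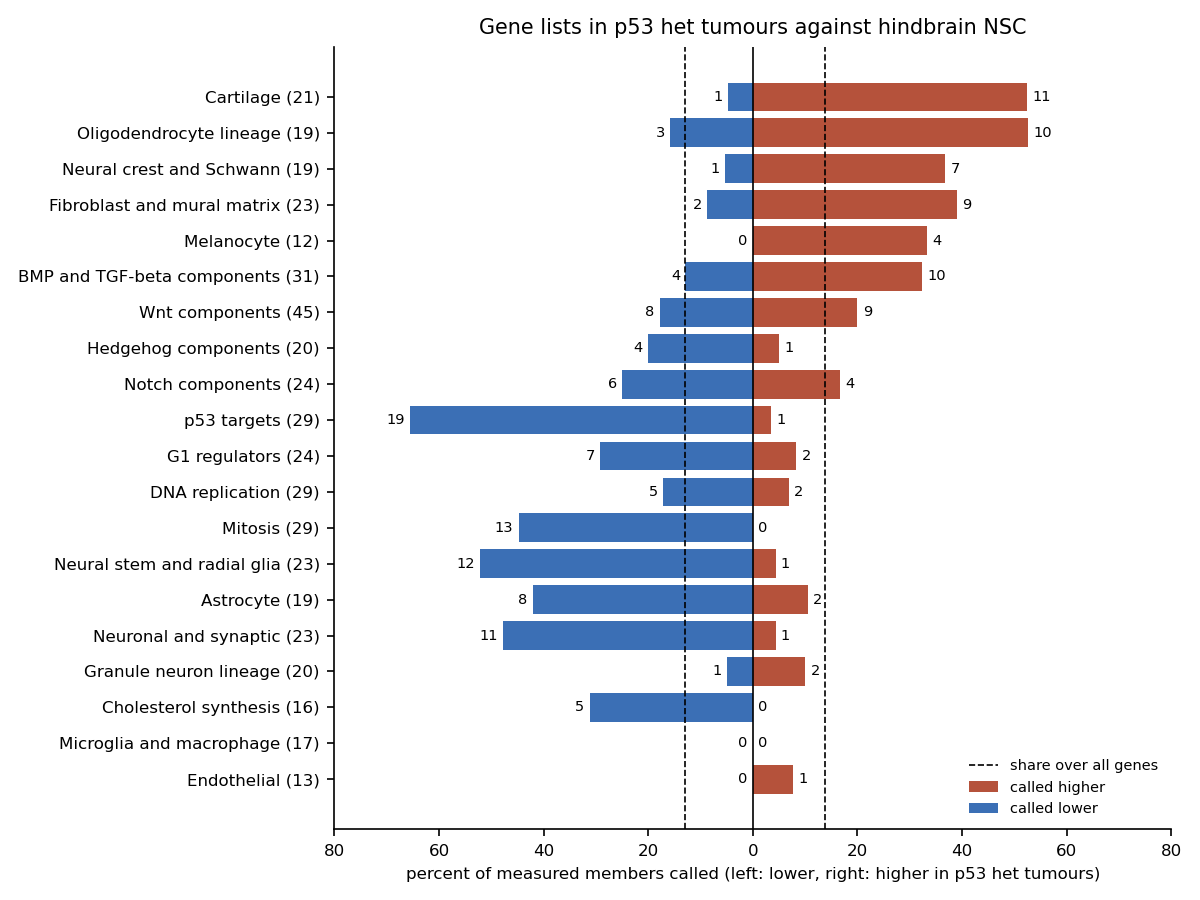
Percent of measured members of 20 gene lists called higher (right) or lower (left) in the p53 het tumours than in hindbrain NSC, with the number called at each bar and the share over all genes as dashed lines (13.8% higher, 13% lower). Cartilage and oligodendrocyte lineage lists reach furthest to the right, at 52.4% and 52.6%, and p53 targets furthest to the left, at 65.5%.

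Structural genes of cartilage were higher in both tumours while Sox9, the transcription factor of cartilage and of neural stem cells, was lower. Of 21 cartilage genes measured, 11 were called higher and 1 lower, with a median difference of 1.66 against 0.03 over all genes. The count of higher genes was 11 with tumour B alone and 13 with tumour 27 alone. A filter on dim genes, leaving out those below the median level over the culture arrays, kept 7 of the 21 in the test, 4 of them called higher (19.1% of all genes kept). Between the tumours 4 of the 21 differed, each higher in tumour 27, against 4.11% of all genes, and Col11a2 was one of them (27 minus B 0.87 ± 0.23, limma adjusted p = 0.0426). That difference lay mainly on array 3, at 9.98 in tumour 27 and 7.76 in tumour B. Arrays 1 and 2 read 8.46 and 8.68 against 8.14 and 8.60. How many of the 21 differ without array 3 is not given here. Acan, the proteoglycan aggrecan, read 8.56, 8.52 and 9.56 in tumour 27, 8.24, 8.05 and 7.72 in tumour B and 1.92 to 2.55 (median 2.24) in hindbrain NSC. Col11a2, a chain of collagen XI, read 8.46, 8.68 and 9.98 in tumour 27, 8.14, 8.60 and 7.76 in tumour B and 2.12 to 2.43 (median 2.24) in hindbrain NSC. Cnmd, the cartilage glycoprotein chondromodulin, read 6.63, 6.35 and 8.95 in tumour 27, 7.14, 6.85 and 6.02 in tumour B and 1.11 to 1.55 (median 1.40) in hindbrain NSC. None of the 3 overlapped with the hindbrain cultures, and the rises were 6.23 ± 0.22, 6.34 ± 0.18 and at least 5.47 (limma adjusted p = 2.71e-12, 1.35e-13 and 2.41e-13). Against the p53 wild-type lines, which read 1.97 to 2.54 for Col11a2, 11 of the 21 cartilage genes were called higher and 1 lower. Over all genes 14.5% and 11.8% were, and that comparison shares the tumour arrays.

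Col2a1, the collagen that defines cartilage and a gene named after its values were seen, rose by 5.37 (limma adjusted p = 6.75e-11). Sox6, a partner of Sox9 in cartilage, rose by 1.66 (limma adjusted p = 0.000262) and was also chosen after its values were seen. Sox9 itself read 3.09, 3.34 and 2.76 in tumour 27, 5.30, 4.88 and 3.61 in tumour B and 5.78 to 7.05 (median 6.41) in hindbrain NSC. Both tumours lay below every hindbrain culture, by 2.61 ± 0.37 (limma adjusted p = 4.99e-05), and below every wild-type line (6.55 to 7.97).

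The level of these matrix genes moved with the technical array. For 10 of the 11 raised cartilage genes array 3 was the highest of tumour 27, against 38.7% of all genes, and for 9 of 11 array 3 was the lowest of tumour B, against 34.2% of all genes. The median excess of array 3 over the other arrays was 1.02 in tumour 27 and -0.42 in tumour B over these genes, against 0.03 and 0.01 over all genes. Mgp, the mineralisation inhibitor of cartilage and vessel walls, showed it most clearly among the named genes, at 5.52, 5.76 and 9.81 in tumour 27, and at 6.23 and 6.31 on arrays 1 and 2 of tumour B with array 3 lower (mean of all 3 5.52), against 1.56 to 2.08 (median 1.97) in hindbrain NSC. Of all genes called higher, array 3 was the highest of tumour 27 at 40.1% and the lowest of tumour B at 43.8%. Of the 10 raised oligodendrocyte lineage genes it was the highest of tumour 27 at 3 and the lowest of tumour B at 7. The low array 3 of tumour B was thus not particular to matrix genes. What array 3 shares was not tested. Every tumour array of the 4 genes printed by array (Acan, Col11a2, Cnmd and Mgp) stayed above all hindbrain cultures.

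**Figure D3:**
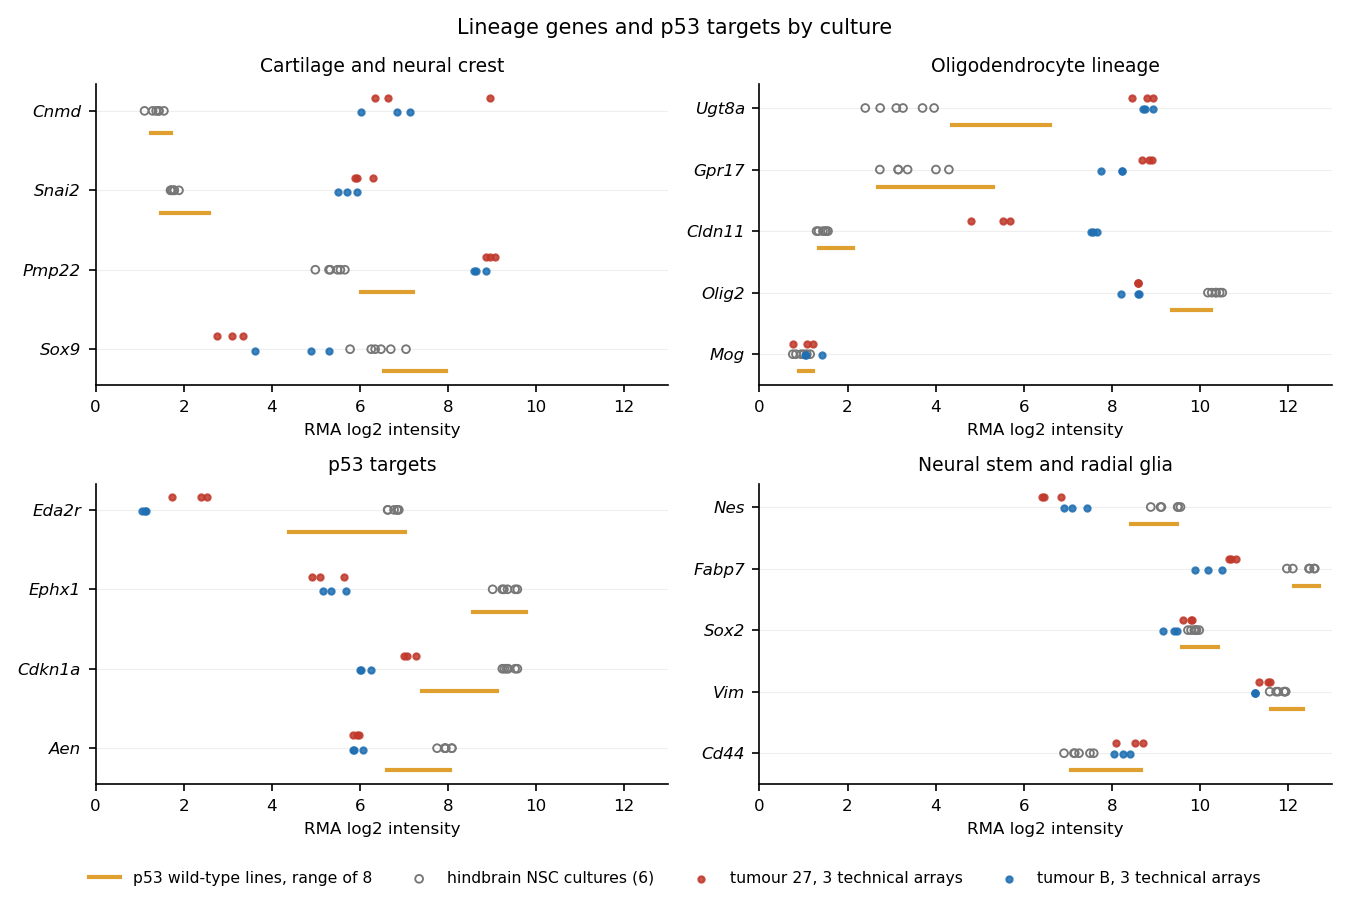
RMA log2 intensity (horizontal axis) of named cartilage, neural crest, oligodendrocyte, p53 target and stem cell genes, drawn as in the plot of the most raised and lowered genes. Ugt8a and Gpr17 lie far above the hindbrain circles in both tumours, while Olig2 and the p53 target Cdkn1a lie below them and Mog stays at the floor in every group.

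Genes of oligodendrocyte precursors and of early myelin rose, and the transcription factors Olig2 and Nkx2-2 fell. Of 19 oligodendrocyte lineage genes measured, 10 were called higher and 3 lower, with a median difference of 0.59, and among the 11 that the filter on dim genes kept, 6 were called higher. Ugt8a, the enzyme of myelin galactolipid synthesis, read 8.80, 8.94 and 8.46 in tumour 27, 8.93, 8.72 and 8.75 in tumour B and 2.40 to 3.97 (median 3.18) in hindbrain NSC. Gpr17, a receptor of committed precursors, read 8.70, 8.91 and 8.84 in tumour 27, 8.23, 8.24 and 7.75 in tumour B and 2.73 to 4.30 (median 3.26) in hindbrain NSC. Both genes were high in both tumours without overlap, at differences of 5.57 ± 0.55 and 4.99 ± 0.56 (limma adjusted p = 8.92e-07 and 4.19e-06). Cldn11, a tight junction protein of myelin, differed in degree between the tumours, at 4.80, 5.69 and 5.54 in tumour 27 and 7.67, 7.58 and 7.52 in tumour B against 1.30 to 1.56 (median 1.47) in hindbrain NSC. It rose by at least 4.95, and tumour 27 was lower than tumour B by 2.24 ± 0.28, that is -2.24 for 27 minus B (limma adjusted p = 0.000173).

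Mbp, the myelin basic protein, was called higher by 1.43 ± 0.18 (limma adjusted p = 1.57e-05), at means of 4.65 in tumour 27, 5.43 in tumour B and 3.61 in hindbrain NSC. That probe set was the brightest, and the 7 others of Mbp differed by 1.25 to 5.42, 6 of them by more, while the mean of all its probe sets rose by 2.92 (limma adjusted p = 2.35e-11). Mog, a protein of mature myelin, stayed at 1.03 and 1.17 in the tumours and 0.76 to 1.15 in hindbrain NSC. Olig2, the transcription factor that specifies the lineage, read 8.59, 8.58 and 8.60 in tumour 27, 8.59, 8.20 and 8.62 in tumour B and 10.18 to 10.51 (median 10.36) in hindbrain NSC. The tumours lay below all hindbrain cultures by 1.83 ± 0.17 (limma adjusted p = 5.48e-07), still at a high level. Nkx2-2, a further factor of the lineage, fell by 1.46 ± 0.18 (limma adjusted p = 8.12e-06). In comparison with the p53 wild-type lines, 10 of the 19 were called higher and 3 lower, against 14.5% and 11.8% of all genes. That comparison shares the tumour arrays.

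Of 19 neural crest and Schwann cell genes measured, 7 were called higher and 1 lower, with a median of 0.12, and the filter on dim genes kept 7 members, 4 of them called higher. Besides Sox10 and Erbb3, they included Snai2, a transcription factor of migrating crest cells, at 5.93, 6.30 and 5.90 in tumour 27, 5.94, 5.71 and 5.51 in tumour B and 1.70 to 1.89 (median 1.76) in hindbrain NSC. Pmp22, the peripheral myelin protein, read 8.97, 8.86 and 9.06 in tumour 27, 8.59, 8.64 and 8.87 in tumour B and 4.99 to 5.66 (median 5.41) in hindbrain NSC. The rises were 4.11 ± 0.24 and 3.44 ± 0.24 (limma adjusted p = 1.74e-09 and 1.12e-08), and neither gene overlapped between groups. The single lowered member was Fabp7, a fatty acid binding protein that this list shares with the neural stem cell list.

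Of 12 melanocyte genes, 4 were called different, each of them higher, and the filter on dim genes kept 2 members, of which Mitf was called higher. Mitf, the transcription factor of melanocytes, rose by 2.74 ± 0.35, Dct, a pigment enzyme, by 2.40 ± 0.20, and Pmel, a melanosome protein, by 1.78 ± 0.19 (limma adjusted p = 1.44e-05, 1.31e-07 and 1.75e-06). The fourth, Oca2, was called with both tumours (0.74 ± 0.21, limma adjusted p = 0.0112) and lost its call without tumour 27 (0.23, limma adjusted p = 0.525). Tyr and Mlana, which define pigment cells, stayed at 1.54 and 1.84 in tumour 27 and 1.45 and 1.48 in tumour B, inside or near their hindbrain ranges of 1.42 to 1.60 and 1.12 to 1.59.

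Fibroblast and mural matrix genes were split by tumour. Of 23 measured, 9 (39.1%, against 13.8% of all genes) were called higher and 2 lower, with 7 higher without tumour 27 and 8 without tumour B. Among the 7 members that the filter on dim genes kept, 1 was called higher. That is 14.3%, below the 19.1% of all genes kept, so the higher share rests on dim members. Col3a1, a fibrillar collagen of connective tissue, read 2.85, 2.79 and 4.12 in tumour 27, 8.29, 8.23 and 8.47 in tumour B and 1.34 to 1.65 (median 1.48) in hindbrain NSC. Col1a1, the main collagen of fibroblasts and bone, read 2.03, 1.89 and 2.72 in tumour 27, 5.70, 5.69 and 6.63 in tumour B and 1.75 to 2.13 (median 1.94) in hindbrain NSC. Tumour B was high for both, and tumour 27 was close to the hindbrain cultures for Col1a1 and above all of them for Col3a1. The tumours differed by -5.07 ± 0.17 and -3.79 ± 0.23 for 27 minus B (limma adjusted p = 4.72e-11 and 6.94e-08). The mean rise of Col3a1 over both tumours, at least 4.27, became at least 6.81 without tumour 27 and at least 1.74 without tumour B (limma adjusted p = 5.58e-15 and 8.49e-08), and that of Col1a1, 2.16, became 4.06 without tumour 27 and lost its call without tumour B (0.26, limma adjusted p = 0.345).

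Other matrix genes rose in both. Col6a1, a chain of collagen VI, rose by 5.34 ± 0.52 and Mgp by 4.38 ± 0.25 (limma adjusted p = 6.97e-07 and 1.3e-09). Postn, the matrix protein periostin, rose by 2.83 ± 0.25 and Bgn, the proteoglycan biglycan, by 2.11 ± 0.20 (limma adjusted p = 2.9e-07 and 4.42e-07). Fbln2, a basement membrane protein, fell by 4.91 ± 0.60 (limma adjusted p = 9.82e-06). Dcn and Pdgfrb, which define fibroblasts and mural cells, were not called, at means of 2.86 and 2.25 in tumour 27, 2.88 and 2.02 in tumour B and 2.64 and 1.94 in hindbrain NSC. The summed-up fibroblast markers (mean of Col1a1, Col3a1, Dcn and Pdgfrb) stood at 2.65 in tumour 27 and 4.81 in tumour B against 1.87 to 2.19 in hindbrain NSC, and the part of such cells in the matrix results was not tested.

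Genes activated by p53 were lower in both tumours. Of 29 p53 targets measured, 19 were called lower and 1 higher, with a median of -0.83 over the mean of the tumours, -0.91 for tumour 27 and -0.96 for tumour B. The count of lowered genes was 13 without tumour 27 and 16 without tumour B, beside 1 and 2 raised. Cdkn1a, the cell cycle inhibitor p21, read 7.06, 6.99 and 7.26 in tumour 27, 6.04, 6.26 and 6.00 in tumour B and 9.24 to 9.58 (median 9.35) in hindbrain NSC. Eda2r, a receptor of the tumour necrosis factor family, read 2.39, 1.73 and 2.52 in tumour 27, 1.13, 1.15 and 1.05 in tumour B and 6.63 to 6.88 (median 6.81) in hindbrain NSC. Both genes were low on every tumour array without overlap, at falls of 2.78 ± 0.36 and 5.11 ± 0.47 (limma adjusted p = 1.68e-05 and 4.01e-07).

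Ephx1, an epoxide hydrolase of detoxification, fell by 4.02 ± 0.24, and Aen, a nuclease of apoptosis, by 2.03 ± 0.27 (limma adjusted p = 1.84e-09 and 2.42e-05). Rrm2b, the p53-induced ribonucleotide reductase subunit encoded on chromosome 15, was the single raised member, by 0.80 ± 0.18 (limma adjusted p = 0.00284). Mdm2, the inhibitor of p53 and a gene named after its values were seen, fell by 0.54 (limma adjusted p = 0.0142). Against the Ptch het p53 wt lines, a comparison that shares the tumour arrays, 14 of the 29 targets were called lower and 2 higher, where 11.8% and 14.5% of all genes were. Cdkn1a stood 1.83 ± 0.35 and Eda2r 4.60 ± 0.46 below the wild-type lines (limma adjusted p = 0.00071 and 9.2e-07), and Aen 1.42 ± 0.26 below (limma adjusted p = 0.00057). Trp53 itself was not analysed here, so the p53 genotype rests on the labels.

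Cyclins of the D family moved in different directions. Of 24 regulators of the G1 phase, 2 (8.33%) were called higher and 7 (29.2%) lower, against 13.8% and 13% of all genes. Counts were 1 higher and 4 lower without tumour 27 and 2 and 6 without tumour B. Ccnd2 read 9.46, 9.13 and 9.33 in tumour 27, 6.38, 6.44 and 7.05 in tumour B and 10.94 to 11.63 (median 11.32) in hindbrain NSC. It was lower in both tumours, and lower in B than in 27 by 2.68 ± 0.31 (limma adjusted p = 8.81e-05), so that its fall of 3.32 ± 0.41 became 1.98 with tumour 27 alone (-1.98 without tumour B). Ccnd1 fell by 1.49 ± 0.12 (limma adjusted p = 1.04e-07). Ccnd3 read 8.98, 8.89 and 8.96 in tumour 27, 9.26, 9.40 and 9.37 in tumour B and 6.93 to 7.36 (median 7.17) in hindbrain NSC, a rise of 1.97 ± 0.29 without overlap (limma adjusted p = 7.4e-05). Among 29 mitosis genes 13 were called different, each of them lower, with a median of -0.46, and the count was 3 without tumour 27 and 15 without tumour B. Mki67, the proliferation antigen, fell by 0.99 ± 0.13, and Cenpf, a kinetochore protein, by 1.37 ± 0.15 (limma adjusted p = 2.56e-05 and 2.82e-06).

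Neural stem cell and radial glia genes were lower as a list. Of 23 measured, 12 were called lower and 1 higher, with a median of -1.31, and the lower count was 11 without tumour 27 and 7 without tumour B. Nes, the intermediate filament nestin, read 6.46, 6.42 and 6.85 in tumour 27, 6.93, 7.09 and 7.43 in tumour B and 8.89 to 9.56 (median 9.31) in hindbrain NSC. Fabp7 read 10.71, 10.82 and 10.67 in tumour 27, 10.19, 9.89 and 10.50 in tumour B and 11.98 to 12.61 (median 12.48) in hindbrain NSC. The falls were 2.42 ± 0.26 and 1.91 ± 0.18 (limma adjusted p = 2.59e-06 and 5.28e-07), with no overlap, although Fabp7 remained among the brightest genes. Sox2, the core stem cell factor, was not called, at 9.74 in tumour 27, 9.36 in tumour B and 9.73 to 9.98 in hindbrain NSC. The label of stem-like cells was checked on Nes, Sox2, Vim, Fabp7 and Msi1, whose mean was 8.73 in tumour 27 and 8.63 in tumour B against 9.85 to 10.17 in hindbrain NSC: all 5 were present, at a lower mean level. Cd44, the hyaluronan receptor, was the single raised member (1.08 ± 0.29, limma adjusted p = 0.00988), a call lost without tumour 27 (0.98, limma adjusted p = 0.0968).

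The astrocyte list divided the tumours. Of 19 genes measured, 8 were called lower and 2 higher against hindbrain NSC. All 19 were higher in tumour 27 than in tumour B, 4 of them at the threshold. Over all genes, 9947 of 18194 were higher in tumour 27 than in tumour B, 1.58% at the threshold. The median difference from hindbrain NSC was 0.48 for tumour 27 and -1.21 for tumour B, and the counts were 9 lower and 1 higher without tumour 27 and 5 and 3 without tumour B. Mlc1, a membrane protein of astrocyte endfeet, read 5.35, 4.81 and 5.55 in tumour 27, 1.68, 2.65 and 2.09 in tumour B and 8.35 to 9.13 (median 8.72) in hindbrain NSC. It fell by 5.04 ± 0.49 and was 3.10 ± 0.40 higher in 27 than in B (limma adjusted p = 7.46e-07 and 0.000245). S100b, a calcium-binding protein of astrocytes and of oligodendrocyte, Schwann and cartilage cells, went the other way, at 10.23, 10.26 and 10.30 in tumour 27, 8.97, 8.84 and 8.37 in tumour B and 3.56 to 5.94 (median 4.64) in hindbrain NSC. It rose by 4.84 ± 0.66 without overlap (limma adjusted p = 3.07e-05). Gfap, the astrocyte filament protein, was not called, at 4.84, 5.29 and 5.26 in tumour 27, 2.19, 3.21 and 2.77 in tumour B and 2.53 to 4.16 (median 2.98) in hindbrain NSC.

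Of 23 neuronal and synaptic genes, 11 were called lower and 1 higher, with a median of -1.31, and the lower count was 6 without tumour 27 and 10 without tumour B. Camk2b, a synaptic kinase, fell by 4.95 ± 0.49, and Map2, a dendrite protein, by 1.40 ± 0.18 (limma adjusted p = 9.4e-07 and 1.61e-05). Tubb3, the neuronal tubulin, rose by 2.78 ± 0.55 (limma adjusted p = 0.00105), with 6.56, 5.46 and 5.77 in tumour 27, 6.85, 6.67 and 6.66 in tumour B and 3.23 to 3.98 (median 3.51) in hindbrain NSC. Granule neurons are the lineage from which Hedgehog-driven medulloblastoma arises. Of 20 genes of that lineage measured, 2 were called higher and 1 lower, against 13.8% and 13% of all genes. The markers Atoh1, Neurod1 and Gabra6 were not called. They stood at 2.57, 1.43 and 1.53 in tumour 27, 2.49, 1.46 and 1.56 in tumour B and 2.27, 1.38 and 1.41 in hindbrain NSC. The mean of these 3 markers was 1.62 to 1.77 in the hindbrain cultures and 1.62 to 2.83 in the p53 wild-type lines. Ptprc and Pecam1, which define leukocytes and endothelium, were 1.00 and 1.81 in tumour 27, 1.19 and 1.66 in tumour B and at most 1.13 and 2.01 in hindbrain NSC. Of 17 microglia and macrophage genes 0 were called, and of 13 endothelial genes 1 was called, higher (26.8% of all genes were called). The endothelial gene Vwf was called higher, at 3.64 in tumour 27, 1.55 in tumour B and 1.41 in hindbrain NSC. Its rise was at least 2.12 in tumour 27 and at least 0.03 in tumour B.

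Ptch1, the altered gene, read 5.71, 6.11 and 5.42 in tumour 27, 7.73, 7.59 and 7.43 in tumour B and 7.99 to 8.62 (median 8.26) in hindbrain NSC. Both tumours lay below all hindbrain cultures, tumour B only a little, and the mean fall was 1.60 ± 0.48 (limma adjusted p = 0.0197). Without tumour 27 the difference was -0.68 (limma adjusted p = 0.495) and without tumour B -2.52 (limma adjusted p = 0.00359). Where the probes lie in relation to the altered allele is not given in the sources used here, so the level does not check the genotype. Of 20 Hedgehog components measured, 4 were called lower and 1 higher, with a median of -0.03 and 2 lower in each tumour alone. With both tumours 25% of the list was called, near the 26.8% of all genes, so the list did not stand out. Sufu, the inhibitor of Gli factors, fell by 0.82 ± 0.15 (limma adjusted p = 0.00046), the smallest p among the lowered members. Gas1, a co-receptor, lost its call without tumour B (-0.57, limma adjusted p = 0.279), and Dhh, a ligand, lost it without either tumour (-2.72 without tumour 27, limma adjusted p = 0.0791, and -2.66 without tumour B, limma adjusted p = 0.0844). Scube3, a secreted protein that aids ligand release, was the raised member, called only through tumour 27 (at least 0.12 without it, limma adjusted p = 0.693).

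Wnt components were called in both directions, as were all genes. Of 45 measured, 9 were called higher and 8 lower, with a median of 0.07, against 13.8% higher and 13% lower over all genes. The filter on dim genes kept 19 members, 3 called higher and 6 lower, where 19.1% of all genes kept were called higher. The secreted inhibitors Wif1 and Frzb rose, Wif1 by at least 4.43 and Frzb by 4.02 ± 0.39 (limma adjusted p = 1.19e-08 and 8.1e-07). Wif1 read 5.92, 6.11 and 6.86 in tumour 27, 5.54, 5.36 and 5.88 in tumour B and 1.02 to 1.64 (median 1.38) in hindbrain NSC, without overlap. Fzd6, a receptor, rose by 2.54 ± 0.20, and Lef1, a transcription factor of the pathway, by 1.59 ± 0.15 (limma adjusted p = 4.22e-08 and 4.3e-07). The feedback targets Nkd1 and Axin2 fell by 2.63 ± 0.26 and 1.75 ± 0.25 (limma adjusted p = 9.29e-07 and 4.61e-05), and the ligand Wnt5a by 3.69 ± 0.28 (limma adjusted p = 3.66e-08). For Wnt5a, tumour 27 read 3.06, 2.17 and 3.00, tumour B 2.72, 2.59 and 1.94, and hindbrain NSC 5.60 to 6.60 (median 6.48).

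Of 31 BMP and TGF-beta components, 10 were called higher and 4 lower, with 8 higher without tumour 27, 11 without tumour B and 5 among the 16 members that the filter on dim genes kept. Tgfbr2, the ligand-binding TGF-beta receptor, read 7.90, 8.21 and 7.95 in tumour 27, 7.12, 7.06 and 6.94 in tumour B and 4.11 to 5.86 (median 4.70) in hindbrain NSC, a rise of 2.75 ± 0.44 (limma adjusted p = 0.000155). The ligands Tgfb3 and Bmp4 rose by 1.61 ± 0.29 and at least 1.27 (limma adjusted p = 0.000424 and 7.39e-06). Bmpr2, a BMP receptor, and Smad5, its signal carrier, fell by 1.11 ± 0.15 and 1.35 ± 0.21 (limma adjusted p = 2.32e-05 and 0.000129).

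Among 24 Notch components 4 (16.7%) were called higher and 6 (25%) lower, against 13.8% and 13% of all genes. Without tumour 27 the counts were 1 and 6, and without tumour B 4 and 2. Lfng, the enzyme that modifies the receptor, read 3.54, 4.59 and 4.13 in tumour 27, 3.61, 3.13 and 4.05 in tumour B and 7.80 to 8.87 (median 8.06) in hindbrain NSC, a fall of 4.34 ± 0.31 (limma adjusted p = 1.84e-08). The ligand Dll1 fell by 1.73 ± 0.32 (limma adjusted p = 0.00059). Notch1 fell by 1.31 ± 0.26, mainly in tumour B, since its call was lost without B (-0.59, limma adjusted p = 0.0717). The target gene Hey2 was high in tumour 27 and close to the hindbrain level in tumour B, at 5.23, 5.61 and 4.92 against 1.81, 2.06 and 1.18 in tumour B and 1.08 to 1.34 (median 1.24) in hindbrain NSC. Its difference between the tumours was 3.57 ± 0.23 (limma adjusted p = 1.67e-07), and its mean rise of at least 1.95 lost its call without tumour 27 (at least 0.16, limma adjusted p = 0.085).

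**Figure D4:**
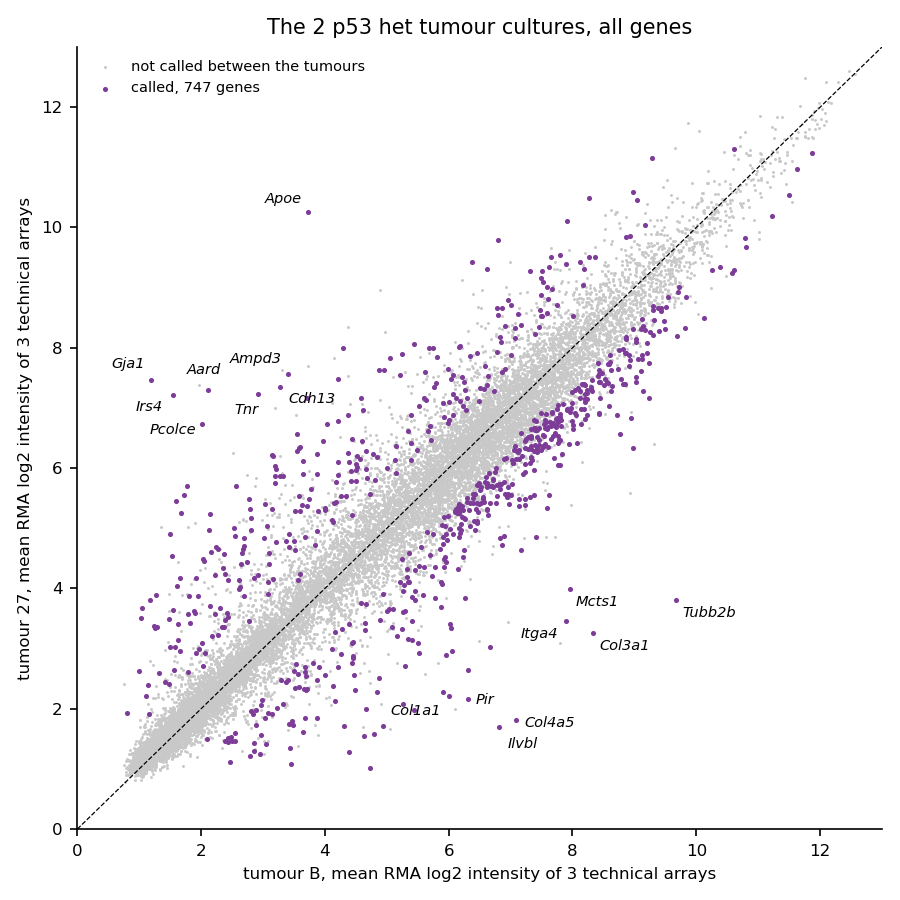
Mean RMA log2 intensity of 3 technical arrays in tumour 27 (vertical axis) and tumour B (horizontal axis), 1 point per gene for 18194 genes. The 747 genes called different between the tumours are in purple. The 16 named genes have the largest differences among those called, without predicted or clone symbols. Apoe lies highest above the dashed line of equality and Tubb2b farthest below it among the named genes.

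The tumours differed from each other at 747 genes (4.11%), 287 (1.58%) higher in tumour 27 and 460 (2.53%) higher in tumour B, of which 517 differed at least 2-fold. Because each tumour is 1 culture, this test takes the spread from the other cultures. The median difference between the tumours without sign was 0.231. The median SD was 0.176 and 0.142 among the technical arrays of tumours 27 and B and 0.159 among hindbrain cultures. A distance between 2 means and an SD of single arrays or cultures are unlike measures, so their sizes cannot be compared directly. Of the 4878 genes called against hindbrain NSC, 358 also differed between the tumours. On opposite sides of the hindbrain mean lay 382 of the 747 genes, and 43 genes were called in both tumours in opposite directions, in comparisons that share the hindbrain cultures.

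Genes of glia and matrix were among the largest differences. Apoe, a lipid carrier of astrocytes, read 10.52, 9.92 and 10.34 in tumour 27, 3.57, 4.15 and 3.45 in tumour B and 6.38 to 9.89 (median 8.28) in hindbrain NSC. Gja1, the gap junction protein connexin 43, read 7.46, 7.69 and 7.25 in tumour 27, 1.32, 1.03 and 1.22 in tumour B and 6.95 to 9.25 (median 8.28) in hindbrain NSC. Tumour 27 stood above tumour B by 6.54 ± 1.49 for Apoe and by at least 5.95 for Gja1 (limma adjusted p = 0.018 and 0.0248), with tumour 27 above the hindbrain range for Apoe and within it for Gja1, and tumour B below it for both. Irs4, an adaptor of insulin signalling on the X chromosome, read 7.38, 7.45 and 6.82 in tumour 27, 1.70, 1.63 and 1.32 in tumour B and 1.08 to 1.34 (median 1.18) in hindbrain NSC. It was high in tumour 27 and little above the hindbrain cultures in tumour B (27 minus B 5.67 ± 0.26, limma adjusted p = 1.31e-09).

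In the other direction, Tubb2b, a tubulin of developing neurons, read 3.71, 4.27 and 3.46 in tumour 27, 9.68, 9.73 and 9.62 in tumour B and 9.87 to 10.19 (median 10.17) in hindbrain NSC. Tumour B was near the hindbrain cultures and tumour 27 far below them, at -5.86 ± 0.25 for 27 minus B (limma adjusted p = 8.51e-10). Ilvbl, an enzyme of fatty acid oxidation, read 1.53, 1.80 and 1.78 in tumour 27, 6.72, 6.84 and 6.90 in tumour B and 5.91 to 6.67 (median 6.34) in hindbrain NSC, a difference of -5.12 ± 0.47 (limma adjusted p = 1.13e-05). Pir, an iron-binding nuclear protein, was high in tumour B (6.31) and at 2.16 in tumour 27, within the hindbrain range of 1.97 to 2.84. Itga4, the alpha 4 integrin, was lower than hindbrain NSC in tumour 27 and higher in tumour B, at means of 3.46, 6.65 and 7.90 for tumour 27, hindbrain NSC and tumour B.

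DNA replication genes were lower in tumour 27 than in tumour B at every one of the 29 members measured, 10 of them at the threshold. Over all genes, 8247 of 18194 were lower in tumour 27 than in tumour B, 2.53% at the threshold. The median difference from hindbrain NSC was -0.58 in tumour 27, with 15 members called lower and 1 higher, and 0.35 in tumour B, with 10 called higher and 1 lower. Over all genes, 10.5% were called lower in tumour 27 and 11.5% higher in tumour B. Rrm2, the ribonucleotide reductase subunit of S phase, read 7.30, 6.97 and 7.23 in tumour 27, 9.12, 9.23 and 9.35 in tumour B and 9.90 to 10.10 (median 9.94) in hindbrain NSC. It was lower than hindbrain NSC in both tumours and 2.07 ± 0.20 lower in tumour 27 than in tumour B (-2.07 for 27 minus B, limma adjusted p = 1.27e-05), so that its mean fall of 1.78 became -0.74 without tumour 27 and -2.81 without tumour B. Mcm7, a helicase subunit named after its values were seen, stood at 9.68 in tumour 27, 10.29 in hindbrain NSC and 10.80 in tumour B, and was called in opposite directions in the 2 tumours (limma adjusted p = 0.00346 and 0.0107). Cdc45, Gins1 and Rfc5, replication factors also named after their values were seen, had the same order. Cholesterol synthesis genes also separated the tumours, and the same shares over all genes apply. All 16 measured were lower in tumour 27 than in tumour B, 3 at the threshold, with medians of -1.20 and -0.11 from hindbrain NSC.

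**Figure D5:**
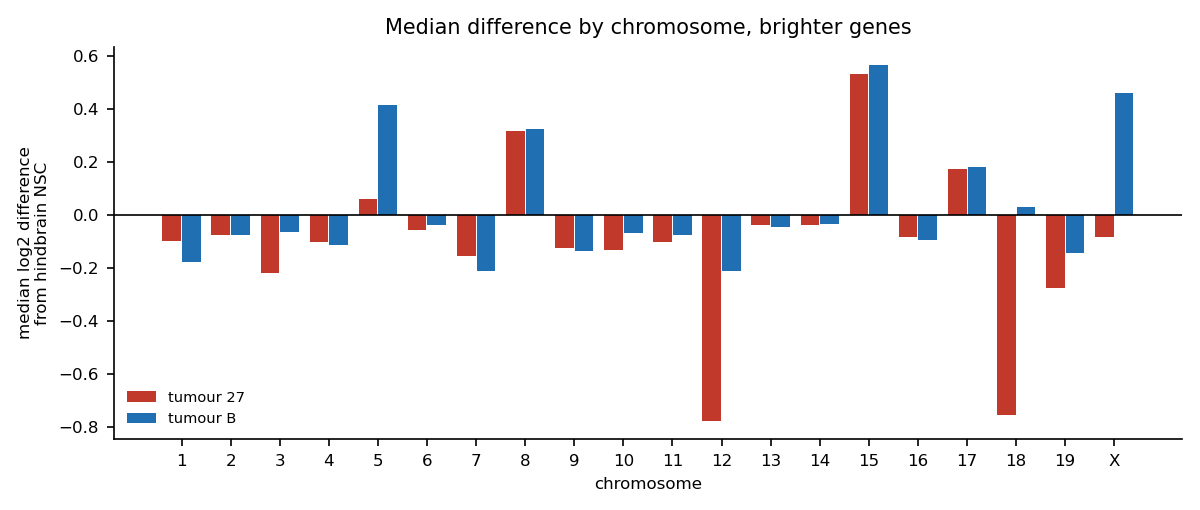
Median log2 difference from hindbrain NSC over the brighter genes of each chromosome, for tumour 27 (red) and tumour B (blue). Chromosomes 15 and 8 lie above 0 in both tumours, and chromosomes 12, 18, 5 and X separate them.

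Levels also varied by the chromosome a gene lies on, over the 9097 brighter genes. Genes on chromosome 15 had a median difference of 0.53 in tumour 27 and 0.57 in tumour B, and 79.2% and 78.4% of its 365 genes stood above the hindbrain mean, against medians of -0.07 and -0.01 over all chromosomes. Sox10, Cthrc1 and Retreg1 are on that chromosome. Chromosome 8 had medians of 0.32 in both tumours. Chromosome 12 was low in tumour 27 (-0.78) and less so in tumour B (-0.21). Chromosome 18 was low in tumour 27 alone (-0.76 against 0.03), while chromosome 5 (0.06 against 0.41) and X (-0.08 against 0.46) were raised in tumour B. Of the brighter genes on chromosome 18, 76 of 224 were called higher in tumour B than in tumour 27. On chromosome 5 these were 68 of 609, on X 43 of 304 and on chromosome 12 41 of 321. Called higher in tumour 27 were 1, 8, 2 and 2 in the same order. Over all 18194 genes, bright or dim, 2.53% were called higher in tumour B and 1.58% in tumour 27. The share over the brighter genes alone is not given here, so these shares are not a matched level for the chromosome counts. These medians are a description over genes that share arrays and hindbrain cultures, and the number of chromosome copies was not measured.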

How the data were processed

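Mouse Affymetrix arrays were deposited as log2 intensities, 1 value per probe set and array. The authors made them with RMA, per the submitters' processing notes; its version is not given in the sources used here. Of 45101 probe sets, 34958 carried 1 gene symbol in the platform annotation, 932 carried several and 9211 were not listed or blank, and a gene with several probe sets (9012 of 18194) was represented by the one with the highest mean over all 31 arrays. The 3 technical arrays of each p53 het tumour were averaged.

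Fits used limma 3.58.1 in R 4.3.3 (lmFit, eBayes, two-sided) on all 19 cultures, with Benjamini-Hochberg adjustment over all genes and calls at 0.05: 5 groups (14 residual degrees of freedom) for the p53 het tumours, 6 groups (13) with each tumour as its own group. ± is the SE. The script was tested on simulated data. Array number limits the precision. Members, gene lists and tests were chosen with earlier results of these data known, so no list is independent evidence. The named genes were Ptch1, cell type markers and the 12 largest rises and falls among called genes whose tumours lay outside the hindbrain range. Added to these were up to 4 members per list in the main direction by p and up to 2 in the other. The 8 largest differences between the tumours each way came from the genes called in that comparison. Predicted and clone symbols were left out of the rises, falls and differences. Alternatives left out cultures or technical arrays, changed the probe set rule, the filter on dim genes, the scaling and the blocks, and required a 2-fold change. The NSC are labelled as biological replicates. The p-values measure the spread within groups, pooled over all 19 cultures and not over the NSC alone. In the fit of 6 groups the tumours add nothing to that spread.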

Additional observations from a re-analysis of the deposited data

Results flagged for a closer look

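The 2 tumours carry the same genotype label, and the 8 largest differences between them each way are given as tumour 27 minus tumour B in log2 intensity. They were taken from the genes called in a test of that difference (limma, adjusted over all genes), so passing it is no added support. Predicted and clone symbols were left out. Higher in tumour 27 were Apoe (6.54), Gja1 (6.28 as fitted, at least 5.95), Irs4 (5.67), Aard (5.19), Pcolce (4.71), Tnr (4.31), Ampd3 (4.16) and Cdh13 (4.08). Higher in tumour B were Tubb2b (-5.86), Col4a5 (-5.28), Ilvbl (-5.12), Col3a1 (-5.07), Itga4 (-4.44), Pir (-4.15), Mcts1 (-3.96) and Col1a1 (-3.79). Of these 16 genes, Irs4, Col4a5, Pir and Mcts1 are on the X chromosome. Tnr lost its call without any 1 of 5 hindbrain cultures (IV ventricle 1 or 3, cerebellar 1, 2 or 3), at limma adjusted p = 0.05 to 0.0539, and without technical array 3 (4.10, limma adjusted p = 0.057). It also lost it with the trended robust prior, with the replicate block and with technical array 2 of each tumour alone (highest limma adjusted p over its alternatives 0.0645), and Gja1 lost its call with the mean of all its probe sets (limma adjusted p = 0.111). Among 25 genes checked for a hindbrain culture far from the other 5, 0 had one, where chance gives about 1 in 20.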

How the results depend on the processing

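Under the alternatives run, no called difference of a named gene changed sign. Over all 4878 genes called against hindbrain NSC, 14 had the 2 tumours on opposite sides of the hindbrain mean, so their sign depends on the tumour kept. Of the named genes not called against hindbrain NSC, 22 changed sign under some alternative, 17 of them when 1 tumour was left out, and 3 were then called: Ampd3 (2.01 without tumour B, limma adjusted p = 0.0236, and -2.15 without tumour 27), Itga4 (1.25 without tumour 27, 0.0281, and -3.19 without tumour B) and Pcolce (-2.08 without tumour 27, 0.0458, and 2.62 without tumour B). The DNA replication counts, 2 higher and 5 lower, became 10 and 1 without tumour 27 and 1 and 15 without tumour B. Requiring a 2-fold change left 1980 genes for the tumours against hindbrain NSC, 2022 for tumour 27 alone, 1991 for tumour B alone and 1810 against the p53 wild-type lines (4782 without that requirement). The difference between the tumours was called at 1381 genes with technical array 1 of each alone, 1845 with array 3 alone and 4591 when technical arrays were treated as replicates. Leaving out 1 culture or technical array gave 3781 to 5072 genes against hindbrain NSC, 3494 to 4072 for tumour 27 (3851 with all), 3539 to 3925 for tumour B (3781 with all), 655 to 1052 between the tumours and 3588 to 4870 against the wild-type lines. The replicate block within NSC gave 4815, 3853, 3811, 753 and 4664 genes in the same order and changed no count by over 1.5 times. Same-numbered IV ventricle and cerebellar cultures correlated at 0.377, -0.138 and -0.061 in their deviations, and differently numbered ones at -0.46 to 0.359. With so few cultures these values do not settle whether the numbers pair them. With the date-like mark as a random block 4495 genes were called. Of the named genes' results under the alternatives, 5766 kept their side of the threshold, 3 changed sign and were called, 154 fell short of it and 25 passed it. Of 111 called named genes with other probe sets, 5 (Aspm, Cd44, Cdh13, Fzd6 and Gas1) had one of opposite sign, none beyond 0.5. The hindbrain level of dim genes such as Hapln1 and Cnmd sets only a bound.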

Other observations

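Genes of the insulin-like growth factor axis and imprinted growth genes changed in both directions. Of 20 measured, 3 (15%) were called higher and 7 (35%) lower, against 13.8% and 13% of all genes. Grb10, an imprinted adaptor that restrains insulin and IGF signalling, read 6.81, 7.02 and 6.65 in tumour 27, 9.31, 9.27 and 8.23 in tumour B and 1.98 to 3.31 (median 2.11) in hindbrain NSC. It rose by 5.53 ± 0.42 (limma adjusted p = 3.06e-08), without overlap, and tumour B stood above tumour 27 (-2.11 ± 0.52 for 27 minus B, limma adjusted p = 0.0285). The binding proteins Igfbp2 and Igfbp3 fell by 4.07 ± 0.24 and 3.74 ± 0.22 (limma adjusted p = 1.74e-09 and 1.88e-09). For Igfbp2 the tumours read 7.55, 7.37 and 8.53 (27) and 6.98, 7.21 and 6.74 (B), against 11.18 to 11.93 (median 11.43) in hindbrain NSC. The receptor Igf2r, which clears IGF2, rose by 1.45 ± 0.27 (limma adjusted p = 0.000683).

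Zeb1, a transcription factor that represses epithelial genes, read 7.90, 7.99 and 7.73 in tumour 27, 7.88, 7.82 and 7.91 in tumour B and 10.22 to 10.50 (median 10.31) in hindbrain NSC, a fall of 2.47 ± 0.15 (limma adjusted p = 1.74e-09). The neural cadherins Cdh2 and Cdh4 fell by 1.60 ± 0.24 and 1.73 ± 0.18 (limma adjusted p = 8.24e-05 and 2.23e-06). Of 17 Snail, Zeb, Twist and cadherin genes 6 (35.3%) were called lower and 3 (17.6%) higher, against 13% and 13.8% of all genes. The higher count was 1 without tumour 27 and 2 without tumour B. Unc5c, a netrin receptor, rose by 3.59 ± 0.28, and Meis1, a homeobox factor of granule neuron precursors, fell by 2.93 ± 0.41 (limma adjusted p = 5.05e-08 and 4.13e-05). Of the DNA methyltransferases, Dnmt3a fell by 1.97 ± 0.14 and Dnmt1 by 1.00 ± 0.12, while Dnmt3b rose by 0.94 ± 0.15 (limma adjusted p = 2.15e-08, 9.91e-06 and 0.000157).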
